A study of Mus musculus with 9 samples.

Results

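The expression of 10 hepatic steroid dehydrogenases and reductases was examined in the liver of male mice: Hsd3b2, Hsd3b3, Hsd3b5, Hsd3b7, Hsd11b1, Hsd17b2, Hsd17b6, Hsd17b11, Hsd17b13 and Srd5a1. They were taken by name from the 20972 genes that the array probes could be assigned to through their RefSeq accessions, and 12 probes represented them. Total liver RNA was labelled with Cy3 and hybridised to 1-colour Agilent arrays, with 1 array for each of 9 mice aged 20 weeks. The groups were STAM mice without treatment (STAM-NON), STAM mice given insulin (STAM-INS) and Normal mice, with 3 mice in each.

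STAM mice are a non-obese diabetic model of steatohepatitis that progresses to liver cancer, and the study's methods name C57BL/6J as the strain. Both STAM groups had received streptozotocin, which destroys the insulin-producing cells of the pancreas, soon after birth, and a high-fat diet from weaning. The STAM-INS mice additionally received insulin, and the Normal mice received neither streptozotocin nor the high-fat diet. The contrast of STAM with Normal mice therefore joins the toxin, the diet, the diabetes and the liver disease, whose parts cannot be told apart. The labels do not say whether tumour tissue was in the samples.

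Hydroxysteroid dehydrogenases switch a hydroxyl group of a steroid to a ketone or back, and thereby turn hormones on or off, while steroid reductases saturate the steroid ring. The liver uses these enzymes to clear androgens, oestrogens and glucocorticoids from the blood, to regenerate active glucocorticoid, and to build bile acids. In the mouse liver several of them are made in a sex-dependent manner under the pattern of growth hormone secretion. Some members of the family sit on lipid droplets.

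Signals are given as centred log2 signal, the log2 of the background-subtracted probe intensity less the 75th percentile of all spots on that array, so that a difference of 1 is a doubling. Levels of different probes were not compared with each other. The arrays had 46.2% to 65.0% of their spots well above background, with the highest shares in STAM-INS 1, STAM-NON 3 and STAM-NON 1. All 6 arrays of the STAM groups lay on 1 slide and the 3 Normal arrays on another, so slide and STAM status cannot be told apart. The 6 hepatocyte markers were well above background on all 9 arrays. Of the 6 adrenal or gonad markers, the adrenal enzymes Cyp11a1 and Cyp11b1 were not well above background on any array. Cyp21a1, Cyp17a1 and Nr5a1 were well above background on all 9, and Star on 2 STAM-NON arrays and 1 STAM-INS array. All 12 member probes were tested, and 9 of the 10 genes were well above background on every array. The exception was Hsd3b5, which was not well above background in STAM-NON 1.

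In STAM-NON against Normal mice, 7 of the 10 genes were lower (limma, adjusted p below 0.05 over all tested probes): Hsd3b2, Hsd3b3, Hsd3b5, Hsd3b7, Hsd11b1, Hsd17b2 and Srd5a1. Across all tested genes 8.93% were called lower in this comparison. None was called higher, and all 10 estimates lay below 0, as did 60.8% of those of all genes, with a median difference of -1.34 against -0.11 over all genes tested. The 3 STAM-NON values lay below the 3 Normal values for 7 of the 10 genes, where 26.0% of all genes had that pattern.

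The count was 3 when any 1 of Normal 1, Normal 2 or Normal 3 was left out. Over all probes the calls then fell from 4220 to 1154, 1112 and 940, in that order. It was 0 with the row of the slide as a block and 1 without the filter on dim probes, where the calls over all probes also fell, from 4220 to 15 and 250. With the row block all 10 estimates were below 0, with a median of -1.25, Hsd3b2 at -1.98 and Hsd3b3 at -1.66. Row 1 carried STAM-NON 1, 2 and 3, whereas row 2 carried Normal 1, 2 and 3. Only the STAM-INS group was split, so the row effect was set by STAM-INS 1 against STAM-INS 2 and 3. The row block thus cannot separate row from group in this comparison, and no conclusion is drawn from its estimates or lost calls. Leaving out the filter does not alter the estimates, so their median of -1.34 was the same by construction.

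**Figure D1:**
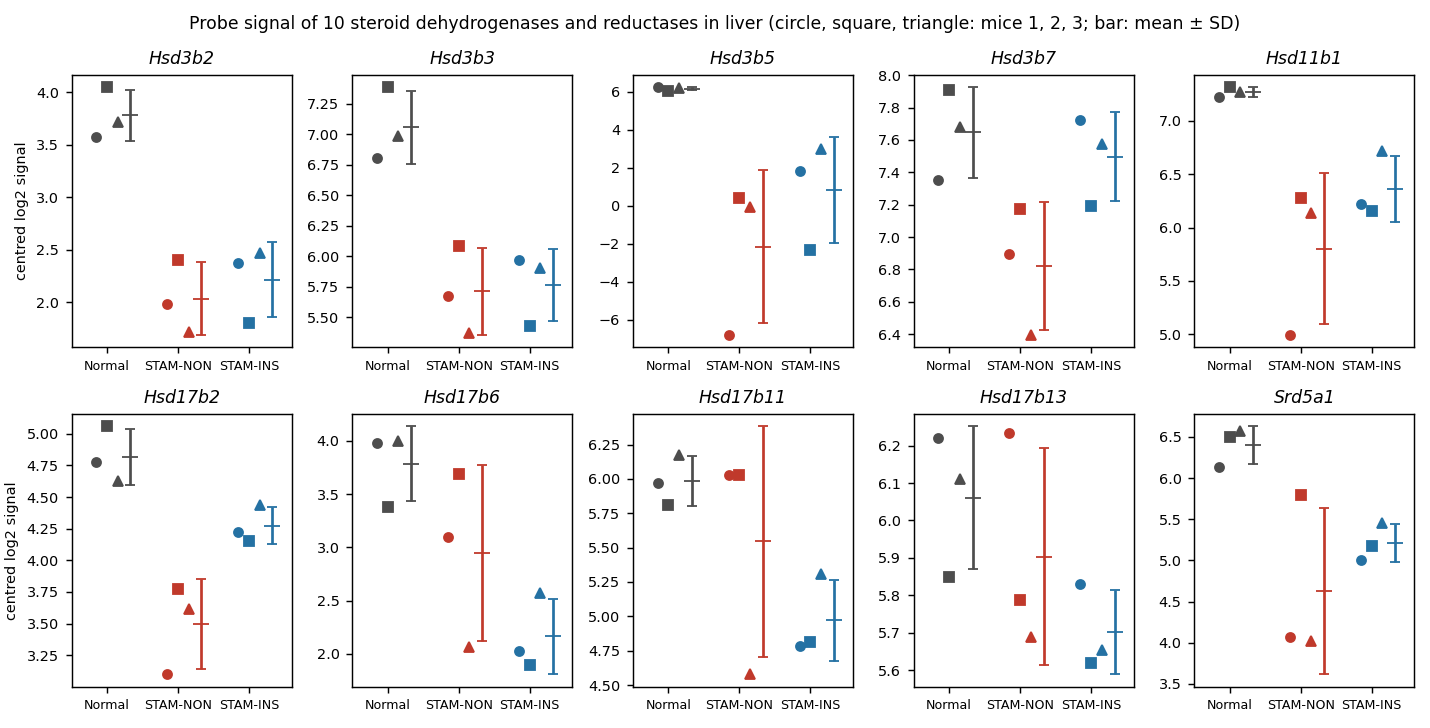
Centred log2 signal (vertical axes, each with its own range) of the 10 genes in Normal, STAM-NON and STAM-INS liver, 1 symbol per mouse with the group mean ± SD beside it. Hsd3b5 lay between 6.07 and 6.24 in Normal mice and at 2.996 or lower in every STAM mouse, while the groups overlapped for Hsd17b13 between Normal and STAM-NON mice.

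The Hsd3b family of beta-hydroxysteroid dehydrogenases was lower in STAM-NON mice for all 4 of its genes in the set. Hsd3b5, a male-specific enzyme of the mouse liver that reduces keto-steroids such as dihydrotestosterone, stood at 6.24, 6.07 and 6.20 in Normal 1, 2 and 3. Its signal was -6.80, 0.43 and -0.05 in STAM-NON 1, 2 and 3, of which the first was not well above background. In STAM-INS 1, 2 and 3 it was 1.85, -2.32 and 2.996. Every STAM mouse was thus below every Normal mouse, and the STAM mice were far apart from each other while the Normal mice were close together.

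The difference for Hsd3b5 was -8.31 ± 1.96 (SE) in STAM-NON against Normal mice (limma, adjusted p = 0.0289), where the groups did not overlap. Since 2 of the 3 STAM-NON arrays measured this probe, the size of the difference rests on a value below detection. It was -7.65 (adjusted p = 0.0211) when each value was raised to the lowest signal detected on its array, and -5.98 (adjusted p = 0.0482) without STAM-NON 1. The adjusted p was 0.0790 to 0.0812 when Normal 1, Normal 2 or Normal 3 was left out. In STAM-INS against Normal mice the difference was -5.33 ± 1.96 with an adjusted p of 0.102, and this became 0.0317 when STAM-NON 1, with its outlying value, was left out of the shared estimate of spread. This difference passed the threshold in 5 of 25 alternative settings. Against STAM-NON mice the STAM-INS estimate was 2.98, with a 95% interval from -1.50 to 7.46. It was 0.65 without STAM-NON 1, 1.90 without STAM-INS 3 and 4.56 without STAM-INS 2.

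Hsd3b2 and Hsd3b3 encode dehydrogenase-isomerases of the same family. Hsd3b2 stood at 3.57, 4.05 and 3.71 in Normal 1, 2 and 3, at 1.99, 2.40 and 1.72 in STAM-NON mice, and at 2.37, 1.80 and 2.47 in STAM-INS mice. Hsd3b3 was 6.80, 7.39 and 6.99 in Normal mice, 5.67, 6.09 and 5.37 in STAM-NON mice, and 5.97, 5.42 and 5.90 in STAM-INS mice. For both genes neither STAM group overlapped with the Normal mice, and the STAM groups overlapped with each other.

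Hsd3b2 was 3.35-fold lower in STAM-NON than in Normal mice (difference -1.74 ± 0.24 SE, adjusted p = 0.00762) and 2.96-fold lower in STAM-INS mice (-1.56 ± 0.24, adjusted p = 0.00704). Hsd3b3 was 2.55-fold lower in STAM-NON mice (-1.35 ± 0.24, adjusted p = 0.0143) and 2.45-fold lower in STAM-INS mice (-1.29 ± 0.24, adjusted p = 0.0136). Between the STAM groups the interval of the difference was -0.36 to 0.72 for Hsd3b2 and -0.49 to 0.60 for Hsd3b3. The second probe of Hsd3b2 gave -1.77 ± 0.46 in STAM-NON mice (adjusted p = 0.0381) and -1.64 ± 0.46 in STAM-INS mice (adjusted p = 0.0510). Of the 26 alternative settings, Hsd3b2 in STAM-INS mice passed the threshold in 26 and Hsd3b3 in 23, not among them the fit without STAM-INS 2 (adjusted p = 0.0564). The Hsd3b genes on chromosome 3 are close in sequence, and hybridisation of 1 gene's transcript to another's probe was not tested.

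The 250 bases before the RefSeq start of the 4 Hsd3b genes are shown, since these genes belong to 1 family and were all called lower in STAM-NON mice. They come from RefSeq on GRCm38.p6, which held entries for 9 of the 10 genes. The capitals in Hsd3b5 (chr3:98645535-98645784, minus strand) and Hsd3b3 (chr3:98763129-98763378, minus strand, the first of its entries) mark runs of 10 or more identical bases shared by both windows. Those of Hsd3b7 (chr7:127800359-127800608, plus strand) mark a STAT5 element, and Hsd3b2 (chr3:98724544-98724793, minus strand) has none marked.
Hsd3b5: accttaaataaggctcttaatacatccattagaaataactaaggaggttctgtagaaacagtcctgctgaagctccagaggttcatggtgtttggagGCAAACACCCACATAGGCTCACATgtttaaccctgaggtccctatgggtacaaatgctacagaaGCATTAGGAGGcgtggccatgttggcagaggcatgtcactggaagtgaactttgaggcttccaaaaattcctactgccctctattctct
Hsd3b3: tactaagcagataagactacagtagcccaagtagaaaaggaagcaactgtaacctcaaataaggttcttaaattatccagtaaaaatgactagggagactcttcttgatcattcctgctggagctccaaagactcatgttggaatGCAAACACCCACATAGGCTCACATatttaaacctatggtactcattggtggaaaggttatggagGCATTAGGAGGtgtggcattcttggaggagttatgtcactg
Hsd3b2: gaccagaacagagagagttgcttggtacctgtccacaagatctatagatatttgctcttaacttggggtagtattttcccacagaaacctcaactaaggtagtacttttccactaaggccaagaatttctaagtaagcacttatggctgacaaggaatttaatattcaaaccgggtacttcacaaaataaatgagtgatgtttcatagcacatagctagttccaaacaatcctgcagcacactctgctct
Hsd3b7: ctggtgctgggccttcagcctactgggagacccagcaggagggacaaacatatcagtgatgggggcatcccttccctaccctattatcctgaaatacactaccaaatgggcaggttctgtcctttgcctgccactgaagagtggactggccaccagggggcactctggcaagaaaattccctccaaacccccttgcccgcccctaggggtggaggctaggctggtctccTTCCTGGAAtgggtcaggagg

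Hsd3b5 and Hsd3b3 shared 2 such runs, of 24 and 11 bases. The longer one, GCAAACACCCACATAGGCTCACAT, was found in 3 of 32851 promoter windows, all of them entries of these genes. It began at -105 in Hsd3b3 and at -153 in Hsd3b5, counted from the annotated start, and neither run was in the Hsd3b2 window. In an alignment of the windows 60.4% of the 250 bases were identical between Hsd3b3 and Hsd3b5, and 54.8% and 55.6% between Hsd3b2 and each of them. Against member windows outside the Hsd3b family the share ran from 46.8% to 54.8% for Hsd3b2 and from 48% to 57.2% for Hsd3b5. The Hsd3b2 values therefore do not stand apart from those of other windows. The windows were searched on both strands for 6 motifs. The core promoter letters TATAAA stood in 12.4% of all promoter windows. The STAT5 element TTCNNNGAA was in 7.02%, the HNF4 element CAAAGTCCA in 0.384%, the C/EBP element TTGCNNCAA in 1.74% and the glucocorticoid receptor element ACANNNTGT in 5.84%. The half-site of the liver factor HNF1, which reads GTTAAT, was in 6.43% of them. Among the 11 windows of the 9 genes the search found 1 match, the STAT5 letters TTCCTGGAA at -21 in Hsd3b7. The window of Hsd3b6, a gene of the Hsd3b family outside the set, held 3 matches. They were the HNF1 half-site at -89, the C/EBP element at -126 and the glucocorticoid receptor element at -231. A match is a description of the letters and not a binding site, and the other windows of the 9 genes merely lack these letters.

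Hsd3b7, the dehydrogenase that follows cholesterol hydroxylation in bile acid synthesis, was the one gene of the set whose STAM-INS values overlapped with the Normal values. It stood at 7.35, 7.91 and 7.68 in Normal mice, 6.90, 7.17 and 6.39 in STAM-NON mice, and 7.73, 7.19 and 7.57 in STAM-INS mice. The STAM-NON values were below those of both other groups, and the STAM-INS values lay among or near the Normal ones. The decrease in STAM-NON against Normal mice was 1.77-fold (-0.83 ± 0.24 SE, adjusted p = 0.0497) and sat at the threshold, which it passed in 8 of 26 alternative settings. These settings include the row block and a fit with STAM-NON 2 as the only STAM-NON mouse, from whose calls nothing is concluded. The call was lost without any 1 of the arrays other than STAM-NON 2. In STAM-INS mice the difference was -0.15 from Normal, with an interval from -0.70 to 0.40, and 0.68 from STAM-NON, with an interval from 0.13 to 1.22 and an adjusted p of 0.503.

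**Figure D2:**
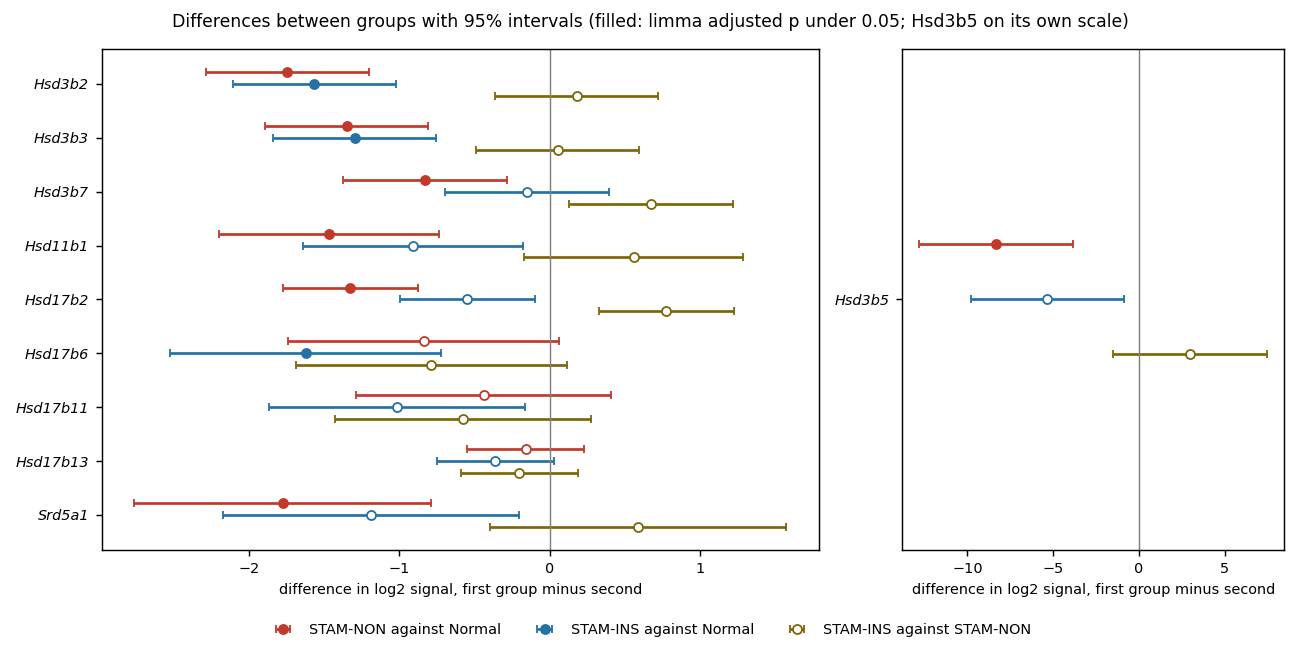
Differences in log2 signal (horizontal axes, Hsd3b5 on a scale of its own) for the 3 comparisons, with 95% intervals and filled points where the limma adjusted p was below 0.05. Filled points lie at 7 genes for STAM-NON against Normal, at 3 for STAM-INS against Normal and at none for STAM-INS against STAM-NON.

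Hsd11b1 regenerates active glucocorticoid from its inert keto form inside hepatocytes, using NADPH supplied by H6pd. Its signal was 7.23, 7.32 and 7.27 in Normal mice, 4.99, 6.28 and 6.14 in STAM-NON mice, and 6.22, 6.16 and 6.72 in STAM-INS mice. No STAM mouse reached the Normal values, and STAM-NON 1 was the lowest of all. Hsd11b1 fell 2.77-fold in STAM-NON mice (-1.47 ± 0.32 SE, adjusted p = 0.0240), and the adjusted p was 0.0677 to 0.0712 without Normal 1, Normal 2 or Normal 3. In STAM-INS mice it was -0.91 ± 0.32 from Normal (adjusted p = 0.0909, and 0.0167 without STAM-NON 1) and 0.56 from STAM-NON, with an interval from -0.17 to 1.29. The STAM-INS difference from Normal passed the threshold in 5 of 26 alternative settings. H6pd was also lower in STAM-NON mice (-0.63, adjusted p = 0.0121), with -0.28 in STAM-INS mice (adjusted p = 0.100). The glucocorticoid receptor Nr3c1 gave -0.40 in STAM-NON mice (adjusted p = 0.0847).

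Of 13 genes listed as responsive to glucocorticoid, 1 was higher in STAM-NON mice and 12 did not pass, with a list median of 0.19. The one that rose was Lcn2, a secreted iron-siderophore carrier of the acute phase, by 4.85 (adjusted p = 0.0163). In STAM-INS against Normal mice Lcn2 and the oestrogen sulphotransferase Sult1e1 rose and the tryptophan dioxygenase Tdo2 fell by 0.93 (adjusted p = 0.0297). Lcn2 was higher by 5.79 (adjusted p = 0.00773). No Normal array had Sult1e1 well above background, and STAM-INS mice exceeded this limit at least 5.92-fold. The limma adjusted p of 0.0211 belongs to the measured Sult1e1 difference of 3.59, which uses Normal values below background.

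Srd5a1 reduces testosterone to dihydrotestosterone and starts the clearance of glucocorticoids. It stood at 6.14, 6.50 and 6.57 in Normal mice, 4.07, 5.79 and 4.02 in STAM-NON mice, and 5.01, 5.17 and 5.46 in STAM-INS mice. All STAM values were below the Normal ones, but STAM-NON 2 was above all 3 STAM-INS mice and its group companions well below them. The fall in STAM-NON mice was 3.42-fold (-1.77 ± 0.43 SE, adjusted p = 0.0311). It passed in 15 of 26 alternative settings, which include the row block and the fit on STAM-NON 2 alone. The call was lost without STAM-NON 1, STAM-NON 3, STAM-INS 2 or any Normal array (adjusted p from 0.0520 to 0.0914). In STAM-INS mice the difference from Normal was -1.19 ± 0.43 (adjusted p = 0.0989, and 0.0112 without STAM-NON 2). It passed in 6 of 26 alternative settings.

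Hsd17b2 oxidises oestradiol and testosterone to their weaker keto forms. The signal was 4.77, 5.06 and 4.63 in Normal mice, 3.10, 3.77 and 3.62 in STAM-NON mice, and 4.23, 4.15 and 4.43 in STAM-INS mice. The 3 groups did not overlap, with STAM-NON lowest and STAM-INS between the others. Hsd17b2 was 2.503-fold lower in STAM-NON than in Normal mice (-1.32 ± 0.20 SE, adjusted p = 0.0100). The STAM-INS difference from Normal was -0.55 ± 0.20 (adjusted p = 0.0955), and that from STAM-NON was 0.78 with an interval from 0.33 to 1.23 (adjusted p = 0.380).

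Hsd17b6, which oxidises androgen metabolites back to active androgen and also acts on retinol, had a different order of groups. It stood at 3.98, 3.38 and 4.001 in Normal mice, 3.10, 3.69 and 2.06 in STAM-NON mice, and 2.03, 1.89 and 2.57 in STAM-INS mice. The STAM-INS values were all below the Normal ones, while STAM-NON mice spread from the STAM-INS to the Normal range. The fall was 3.08-fold in STAM-INS against Normal mice (-1.62 ± 0.39 SE, adjusted p = 0.0326) and passed in 16 of 26 alternative settings. The call was lost without any 1 of the 3 STAM-INS or the 3 Normal arrays (adjusted p from 0.0535 to 0.114). In STAM-NON mice the estimate was -0.84 ± 0.39 (adjusted p = 0.165), and between STAM groups it was -0.79, with an interval from -1.69 to 0.11.

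Hsd17b11 and Hsd17b13 encode short-chain dehydrogenases of the lipid droplet surface. Hsd17b11 was 5.97, 5.81 and 6.17 in Normal mice, 6.03, 6.03 and 4.58 in STAM-NON mice, and 4.78, 4.82 and 5.31 in STAM-INS mice. STAM-NON 1 and 2 lay within the Normal range, whereas STAM-NON 3 was the lowest of the 9 mice. The STAM-NON difference of -0.44 ± 0.37 (adjusted p = 0.417) became 0.04 without STAM-NON 3, and the STAM-INS difference was -1.01 ± 0.37 (adjusted p = 0.101, and 0.0125 without STAM-NON 3). The STAM-INS difference passed in 5 of 26 alternative settings.

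Hsd17b13 was 6.22, 5.85 and 6.11 in Normal mice, 6.23, 5.79 and 5.69 in STAM-NON mice, and 5.83, 5.62 and 5.65 in STAM-INS mice. The Normal and STAM-NON mice overlapped, and the STAM-INS mice lay just under the lowest Normal mouse. The intervals allowed a change of -0.55 to 0.23 in STAM-NON mice and of -0.75 to 0.03 in STAM-INS mice. The second probe, on another transcript, gave -0.26 ± 0.28 (adjusted p = 0.522) and -0.36 ± 0.28 (adjusted p = 0.396). The estimate for STAM-NON mice was 0.15 with centring on spike-in controls, 0.12 with quantile normalisation and 0.02 with the percentile over probes detected on all arrays, so its direction is not settled. Of 17 tested genes for other lipid droplet proteins, 1 passed in STAM-NON mice, the droplet-fusing protein Cidea, higher by 6.53 (adjusted p = 0.0110) with 1 of 3 Normal arrays well above background, and the list median was -0.16. In STAM-INS mice 1 passed, the lipase Pnpla3, with a measured difference of 3.38 (adjusted p = 0.0358). No Normal array had Pnpla3 well above background, and STAM-INS mice exceeded this limit at least 3.46-fold.

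Between the insulin-treated and the untreated STAM mice no gene of the set passed the test. In STAM-INS against STAM-NON mice, 0 of 10 genes were called by limma, with 2 at an unadjusted p below 0.05 where 9.32% of all genes were, and the methods' t-test gave 1 at that level and 0 after Benjamini-Hochberg adjustment. Of all genes, 0.0822% were called in either direction. The genes with an unadjusted p below 0.05 were Hsd3b7 and Hsd17b2, which were also the 2 whose STAM-INS values all lay above the STAM-NON values, a pattern that 7.77% of all genes had. The median difference over the 10 genes was 0.37 against 0.03 over all genes, and the estimates were above 0 for 7 genes and below 0 for Hsd17b6, Hsd17b11 and Hsd17b13. The median of the 10 was 0.16 without STAM-NON 1, 0.15 without STAM-NON 3, 0.22 without STAM-INS 3 and 0.58 without STAM-NON 2. All 6 of these arrays shared a slide, and a fit on them alone called 0 of the 10.

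In STAM-INS against Normal mice 3 of 10 genes were lower, namely Hsd3b2, Hsd3b3 and Hsd17b6, and none was higher. Of all genes 7.49% were called lower. The STAM-INS values lay below the Normal values for 9 of the 10 genes, the exception being Hsd3b7, and 27.3% of all genes had that pattern. The median difference was -1.10 over the 10 genes and -0.07 over all genes, and 8 genes had an unadjusted p below 0.05, as did 32.1% of all genes. The count was 5 without STAM-NON 1, 1 without STAM-INS 2, 8 when the fit held these 2 groups alone and 7 with array weights. The calls over all probes moved as well, from 3650 to 3608, 1038, 5193 and 6538, in that order. Because both comparisons with Normal use the same 3 Normal mice, an error in those mice enters both.

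**Figure D3:**
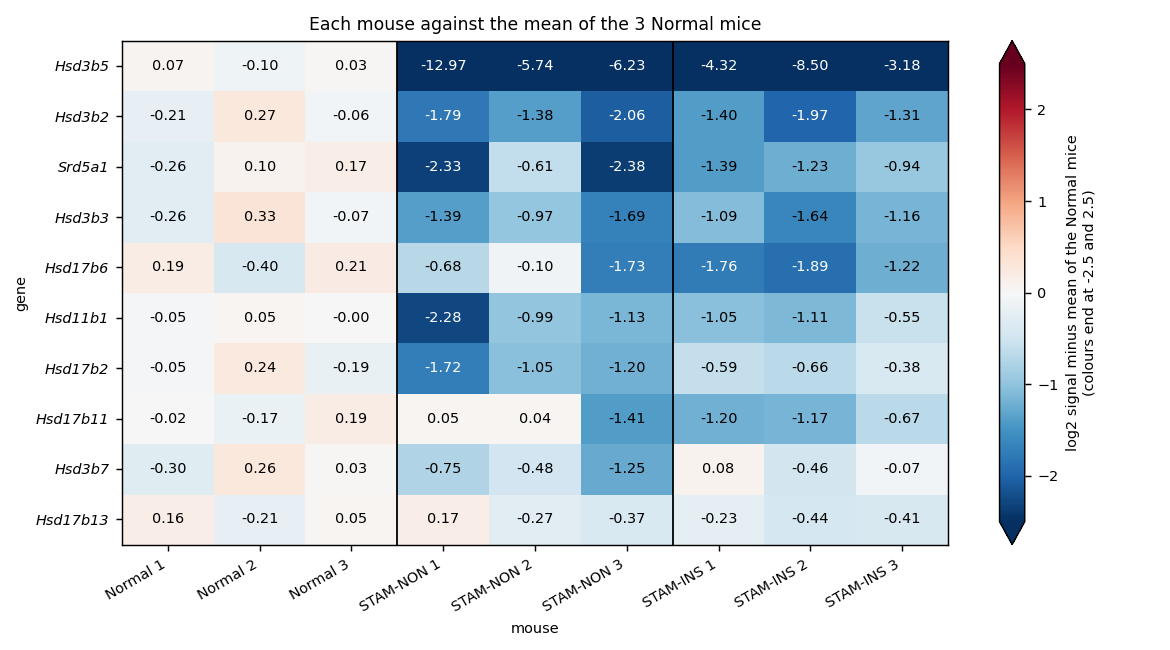
Log2 signal of each gene (rows) in each mouse (columns) minus the mean of the 3 Normal mice, with colours that end at -2.5 and 2.5 and the value printed in each cell. The STAM columns are below 0 for most genes, with Hsd3b5 beyond the colour range in all 6 STAM mice.

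The individual mice were not alike within the STAM groups. Of the 10 genes, 8, 8 and 10 lay below the Normal range in STAM-NON 1, 2 and 3, and 9, 10 and 9 in STAM-INS 1, 2 and 3. The share of all genes below the Normal range was not counted for single mice, so these counts have no background. For whole groups it was 26.0% in STAM-NON and 27.3% in STAM-INS mice, and a single mouse meets the pattern more easily. The median distance from the Normal mean was -1.55, -0.79 and -1.55 in the STAM-NON mice and -1.15, -1.20 and -0.81 in the STAM-INS mice, so STAM-NON 2 was nearer to Normal than the other mice of its group. Srd5a1, Hsd17b6, Hsd17b11, Hsd11b1 and Hsd3b5 varied most among STAM-NON mice, with SDs of 1.01, 0.83, 0.84, 0.70 and 4.04, where the median gene had 0.24. In Normal mice the SDs of the 10 genes ran from 0.05 for Hsd11b1 to 0.35 for Hsd17b6, beside a median of 0.15.

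The mean level of the 6 hepatocyte markers moved with the members, and was 9.08 to 9.15 in Normal mice, 8.40 to 8.78 in STAM-NON mice and 8.56 to 8.88 in STAM-INS mice. Of these markers only the urea-cycle enzyme Cps1 passed the test in STAM-NON mice, falling by 0.67 (adjusted p = 0.0297), and the median of the 6 was -0.48. In bulk liver fewer hepatocytes and less RNA per hepatocyte cannot be told apart. Each array was also centred on these 6 markers, an alternative chosen after seeing the data. With this centring 6 of the 10 genes were called lower in STAM-NON mice and 3 in STAM-INS mice. Over all 26277 tested probes 345 and 520 were called lower, of 7755 and 4596 called in either direction. The medians were -0.82 and -0.73 beside all-gene medians of 0.40 and 0.31. Hsd3b7 in STAM-NON mice was then at -0.31 (adjusted p = 0.285). The part of hepatocyte number in the differences was not tested.

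Some markers of other liver cells were higher. Of the 4 tested macrophage markers, 2 rose in STAM-NON mice, Cd5l by 1.33 (adjusted p = 0.0294) and Clec4f by 0.97 (adjusted p = 0.0420), and the mean of the list ran from 3.71 to 4.25 in Normal mice, 4.58 to 5.27 in STAM-NON mice and 4.37 to 5.47 in STAM-INS mice. Of the 4 tested bile duct markers 3 rose, namely Krt7, Spp1 and Sox9, of which Sox9 was higher by 0.96 (adjusted p = 0.0176), and the mean of the list ran from -2.65 to -1.68 in Normal, -1.42 to -0.42 in STAM-NON and -1.26 to -1.01 in STAM-INS mice. Of the 4 tested endothelial markers 1 was called in STAM-NON mice, Lyve1, higher by 3.01 (adjusted p = 0.0240). Clec4g was at -0.60, Pecam1 at 0.30 and Stab2 at 0.08. From the pancreas list the elastase Cela1 was higher in both STAM groups and Ins2 was called in neither. The gonadal and adrenal regulator Nr5a1 was lower in both STAM groups. In STAM-INS against Normal mice the kidney marker Kap and, from the adrenal list, Cyp21a1 were higher. No Normal or STAM-NON array had Kap well above background, so Kap entered the test through the STAM-INS mice alone. They exceeded the Normal limit at least 1.53-fold, and against STAM-NON mice Kap was not called (limma adjusted p = 0.367). The other tested kidney marker, Aqp2, was at -0.74 in STAM-INS against Normal mice (limma adjusted p = 0.0914). No tested stellate, lymphocyte or erythroid marker was called, and no adipose marker reached the test. The part of these cell types in the differences of the 10 enzymes was not tested.

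The rest of the enzyme family did not move in 1 direction. Of 29 other steroid dehydrogenases and reductases, 25 were on the array and 18 were tested, of which 6 were lower and 3 higher in STAM-NON against Normal mice, with a median of -0.37. The lower ones were led by Hsd3b6, a further gene of the Hsd3b cluster, at -1.51 (adjusted p = 0.0110), and Akr1c14, which reduces dihydrotestosterone and bile acid intermediates, at -1.51 (adjusted p = 0.0235). Akr1c12 was at -1.12 (adjusted p = 0.0163) and the hydroxysteroid dehydrogenase Akr1c6 at -1.10 (adjusted p = 0.0410). The Akr1c genes are related neighbours, and the share of each in its probe's signal was not tested.

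Among the higher ones was Akr1c18, which inactivates progesterone, by 2.9985 (adjusted p = 0.00610), and Hsd17b7, an enzyme of cholesterol synthesis, by 0.68 (adjusted p = 0.0146). Dhrs9, a retinol and steroid dehydrogenase, was well above background on no Normal array. Its level was at least 2.02-fold above that limit in STAM-NON and at least 6.76-fold in STAM-INS mice. It entered the test through the STAM groups alone. The limma adjusted p of 0.0187 (STAM-NON) and 0.00270 (STAM-INS) belong to measured differences of 2.18 and 3.92, which use Normal values below background. In STAM-INS against Normal mice 4 of the 18 were higher and 2 lower. Those were Dhrs9, Akr1c18, Nsdhl, a further enzyme of cholesterol synthesis, and Hsd17b7 on the higher side, and Hsd3b6 and Akr1c12 on the lower side. None of the 18 was called between the STAM groups.

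**Figure D4:**
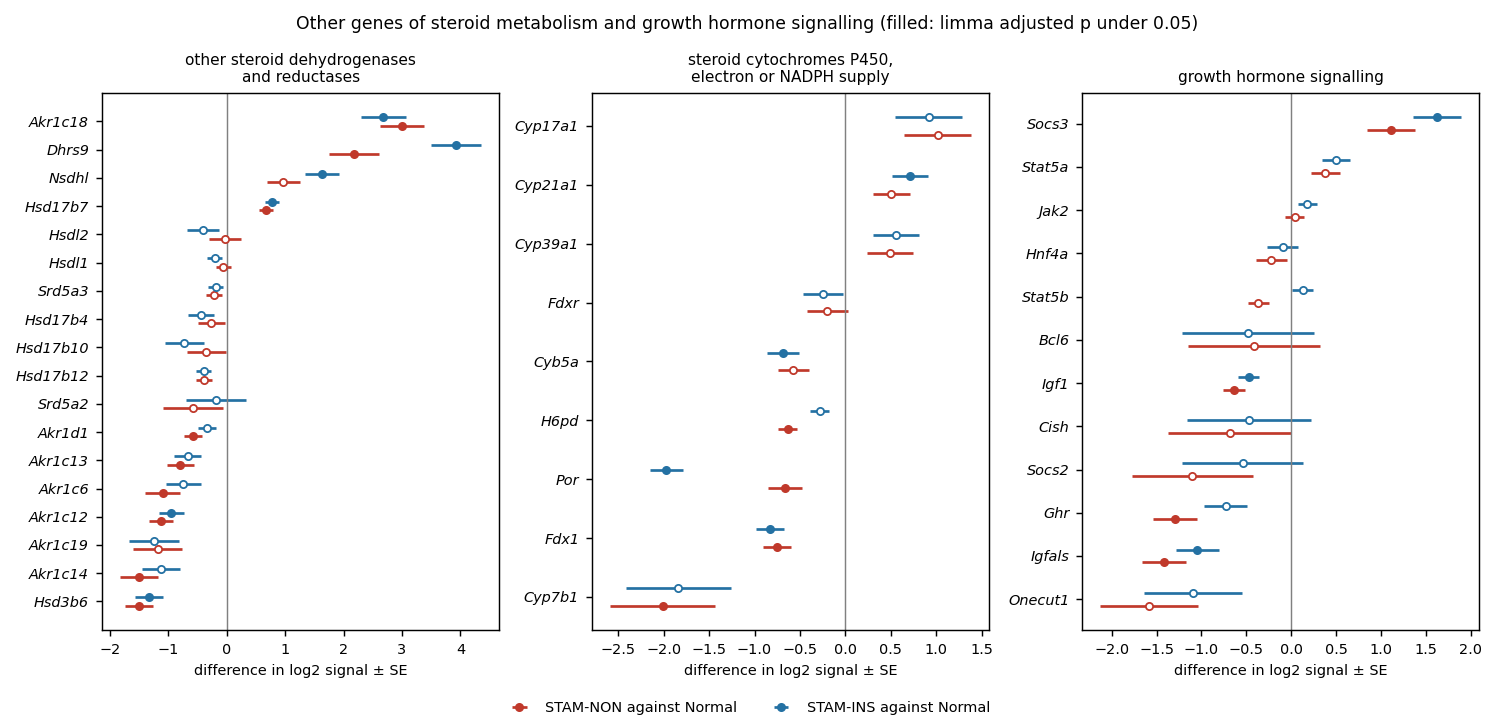
Differences in log2 signal ± SE (horizontal axes) from Normal mice for the tested genes of 3 further lists, with filled points where the limma adjusted p was below 0.05. Akr1c18, Dhrs9 and Hsd17b7 lie above 0 and 6 other dehydrogenases and reductases are filled below 0 in STAM-NON mice.

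Cytochromes P450 of steroid metabolism and the proteins that feed them electrons or NADPH were tested for 9 of 13 genes, and 4 were lower in STAM-NON mice, with a median of -0.57. These were Cyp7b1, which hydroxylates oxysterols and androgens, at -2.01 (adjusted p = 0.0490), the ferredoxin Fdx1 at -0.75 (adjusted p = 0.0193), the P450 reductase Por at -0.66 (adjusted p = 0.0456) and H6pd. In STAM-INS against Normal mice Por, Fdx1 and the cytochrome Cyb5a were lower and Cyp21a1 was higher. Por fell by 1.97 in STAM-INS mice (adjusted p = 0.00185) and stood at -1.31 against STAM-NON mice (adjusted p = 0.0725).

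In bile acid synthesis 7 of 14 genes were lower in STAM-NON mice and none was higher, with a median of -0.53. They were led by Cyp7b1, Akr1c14, the sterol hydroxylase Cyp27a1, at -1.08 (adjusted p = 0.0441), and Cyp46a1, at -0.62 (adjusted p = 0.0152), of which the first 2 are in the lists above as well. In STAM-INS mice 1 was lower, Cyp46a1, and 1 higher, the sterol hydroxylase Cyp8b1, by 1.74 (adjusted p = 0.0170).

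The list of growth hormone signalling had 12 tested genes, and 3 fell and 1 rose in STAM-NON against Normal mice, with a median of -0.53. Igfals, a carrier protein of insulin-like growth factors, fell by 1.42 (adjusted p = 0.0133), the receptor Ghr by 1.30 (adjusted p = 0.0163) and Igf1 by 0.64 (adjusted p = 0.0165). Socs3, an inhibitor of cytokine receptors, rose by 1.11 (adjusted p = 0.0317). In STAM-INS mice Igfals and Igf1 were lower and Socs3 was higher, while Ghr was at -0.73 (adjusted p = 0.0786).

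Genes that are commonly higher in male mouse liver had a median of -1.50 in STAM-NON mice over 20 tested genes, of which 4 were called lower and none higher. These were Ugt2b1, a glucuronosyltransferase, at -2.27 (adjusted p = 0.0260), the cytochrome P450 Cyp2d9 at -1.84 (adjusted p = 0.0299), the diphosphatase Nudt7 at -1.77 (adjusted p = 0.0264) and the complement component C8b at -1.67 (adjusted p = 0.0338). The 17 tested genes that are commonly higher in females had a median of 0.81, with 1 called higher, the fatty acid transporter Abcd2 by 1.83 (adjusted p = 0.0463, with 2 of 3 Normal arrays well above background), and 1 lower, Cyp3a16, which fell by 2.49 (adjusted p = 0.0118). In STAM-INS mice the medians were -0.83 and 0.92. Cyp2d9 was lower and Moxd1 higher among the male-biased genes, with a measured Moxd1 difference of 5.18 (adjusted p = 0.0120). No Normal array had Moxd1 well above background, and STAM-INS mice exceeded this limit at least 11.8-fold. Among the female-biased genes Abcd2 and Sult1e1 were higher and Cyp3a16 lower.

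The genes whose signal followed the members most closely over the 9 arrays were named by Pearson r, which includes the differences between groups and is given without a test. For Hsd3b2 they were Hsd3b6, Pipox and Clcn2, with r from 0.994 to 0.997 (the first may share signal with Hsd3b2), and for Hsd3b3 Clcn2, Cbr2 and Hsd3b6. Hsd3b5 was followed by Klkb1, Ces3b and Slc22a28, with r from 0.984 to 0.989. Hsd3b7 was closest to Qdpr, Hal and Adprm, and Hsd11b1 to Serpina1d, Fancl and Cpsf4. For Srd5a1 the closest were Prpf18, Pbld1 and Selenop, and for Hsd17b2 Dcps, Atad1 and Emg1. Hsd17b6 was followed by Phactr4, Med18 and Eci3, Hsd17b11 by Gmfb, Zc3h7b and 4930525G20Rik, and Hsd17b13 by Scrt2, Samd8 and Vdac2, with r of 0.916 to 0.934 for the last.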

How the data were processed

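Labels gave the groups and replicate numbers. Nothing in them says that the mice of a group came from separate litters or cages, so the tests measure the spread between these mice. The deposited files hold the output of Agilent Feature Extraction 11.5.1.1, with the processed intensity of each spot after the scanner software's background subtraction, the median intensities of spots and their surroundings, and quality marks. No scaling between arrays is named in the headers, and the array methods name no normalisation or test. The labels and the methods name different RNA extraction kits. Control and flagged spots were left out, and the log2 intensity was centred on the 75th percentile of each array. Spots of a probe were averaged. A probe was tested where it was well above background on all arrays of at least 1 group, which left 26277 of 55681 probes. Accessions matched RefSeq (GRCm38.p6) for 27656 probes. Each gene was counted on its tested probe of highest mean. The moderated two-sided test of limma 3.58.1 (R 4.3.3) was fitted to all 9 arrays, and p was adjusted by Benjamini-Hochberg over all tested probes. The methods' t-test was the unpaired two-sided test. The script was tested on simulated data. The number of arrays limits the precision. Every member is named, with up to 4 called genes per other list, comparison and direction, and the 3 genes of highest r per member. Nr3c1 was named after its values were seen. The list of steroid receptors and plasma carriers is not reported here. The genes and lists were chosen with earlier results of these data known. Further marker lists (stellate, endothelial, lymphocyte, erythroid, adipose, pancreas, adrenal or gonad, kidney) were read only as checks.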

Additional observations from a re-analysis of the deposited data

How the results depend on the processing

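The number of genes called in STAM-NON against Normal mice was 7. It was 1 without the filter on dim probes and 0 by the methods' t-test after Benjamini-Hochberg adjustment. It was 0 with the slide row as a block, which has the limit given above. Over all probes these settings called 250, 30 and 15, against 4220. The count ran from 3 to 7 over the fits that left out 1 array. A fit without STAM-NON 1, STAM-NON 3 and STAM-INS 1, chosen after seeing the data, leaves STAM-NON 2 as the only STAM-NON mouse. That mouse was assumed to vary like the other groups, so the fit's values for STAM-NON mice are those of 1 mouse. They say nothing of the stability of the calls, and the calls of this fit are not counted here. The numbers of alternative settings given for single genes do include this fit and the row block. In STAM-INS against Normal mice it was 3, against 5 with normexp on the median signals, 1 without the filter, 8 with these 2 groups alone, 7 with array weights, 9 by the methods' t-test on unadjusted p, 6 without those 3 arrays, and 1 to 5 leaving out 1 array. Over all 26277 tested probes the calls in that comparison moved from 3650 to 3742 with normexp and to 8810 by the t-test on unadjusted p. Without the filter they fell to 572. The 9 genes of the t-test therefore came with more calls over all probes and are not particular to the set. The 6 comes from the fit with 1 STAM-NON mouse, and nothing is concluded from it. In STAM-INS against STAM-NON mice the number of genes called was 0, with 1 by the methods' t-test on unadjusted p and 0 in every fit that left out 1 array.

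Signs differed for estimates that had not passed the test. Hsd17b13 in STAM-NON against Normal mice was 0.0166 with the percentile over detected probes, 0.12 with quantile normalisation, 0.15 with spike-in centring and 0.36 with hepatocyte centring, and in STAM-INS against Normal mice 0.0152 with the latter. Hsd17b11 in STAM-NON against Normal mice was 0.0771 with hepatocyte centring and 0.0432 without the 3 arrays, and ran from -0.68 without STAM-NON 1 to 0.045 without STAM-NON 3. Hsd3b7 in STAM-INS against Normal mice was 0.0693 with quantile normalisation, 0.0123 with spike-in centring and 0.22 with hepatocyte centring, and ran from -0.30 without Normal 1 to 0.0034 without STAM-INS 2. Hsd3b3 in STAM-INS against STAM-NON mice was -0.0119 with quantile normalisation, -0.096 with spike-in centring, -0.0875 with hepatocyte centring and -0.42 without the 3 arrays, and ran from -0.12 without STAM-NON 3 to 0.24 without STAM-NON 2. Against STAM-NON 2 alone, without the 3 arrays, the same comparison gave -0.27 for Hsd3b2, -0.0966 for Hsd3b5 and -0.47 for Srd5a1. The cause was not tested.

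Replicate numbers did not pair the mice, since same-numbered mice of different groups had correlations of their deviations from -0.29 to 0.15 and 1 of 3 matched best with its own number in each comparison. With the replicate block 5, 0 and 2 genes were called in STAM-NON against Normal, STAM-INS against STAM-NON and STAM-INS against Normal mice, with the calls lost for Hsd3b5 (adjusted p = 0.0552), Hsd3b7 (0.0944) and Hsd17b6 in STAM-INS mice (0.0748). Normexp used median signals, because the files used here hold no mean signal. The slide as a block could be fitted only within the STAM slide. Signal over background limits Hsd3b5 in STAM-NON 1.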
